A study of Mus musculus with 12 samples.

Results

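Mgl2, which encodes the macrophage galactose-type lectin CD301b, was described together with 9 other genes used as markers of tissue-resident or alternatively activated macrophages: Clec10a, Mrc1, Cd163, Folr2, Lyve1, Timd4, Retnla, Chil3 and Arg1. These 10 genes were taken by name from a table of 54532 genes, and all 10 were found. Mgl2 was selected on its lower count in the knockout libraries of these same samples, so its difference is given as a description without a test. The other 9 were chosen as known macrophage markers and were tested in the comparison of all genes.

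RNA was sequenced from whole lysates of the tibialis anterior, a muscle of the lower hind leg, of mice whose strain the labels write as 129svlmJ. All 12 muscles were taken 5 days after glycerol injection, an injury from which muscle recovers with deposits of fat. The 6 control libraries are labelled Wildtype and the 6 knockout libraries FAP no ppary, a conditional deletion of Pparg in fibro-adipogenic progenitors (FAPs), the mesenchymal cells of muscle that can turn into adipocytes. Pparg encodes PPARγ, the nuclear receptor that drives adipocyte differentiation. The driver of the deletion, the age of the mice and the number of animals behind each library are not given in the sources used here. P-values therefore measure the spread between these samples, which may be technical in part. The tissue was not sorted, so fewer cells of a type and less RNA per cell cannot be told apart.

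Macrophages clear debris in injured muscle and pass from an inflammatory to a reparative state as the fibres regrow. IL-4 and IL-13 act through the IL-4 receptor and the transcription factor STAT6 to induce a set of macrophage genes that includes Retnla, Chil3, Arg1, Mgl2 and Mrc1. PPARγ is itself a known regulator of this programme in macrophages, and the deletion studied here was aimed at FAPs. Mgl2 is also a known marker of a class of dendritic cells, and Lyve1 is a marker of lymphatic endothelium as well as of perivascular macrophages.

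Library totals ranged from 15716056 to 29790720 counts. Protein genes of the mitochondria took 2.66% to 10.8% of the counts. Pparg was lower in the knockouts, at 26.4 ± 10.3 CPM (counts scaled to library size after TMM normalization) against 57.4 ± 8.27 CPM in controls (SD, n = 6 each), and no knockout library reached the lowest control. Its log2 fold change was -1.12 (SE 0.21, adjusted p = 0.0299, edgeR quasi-likelihood with Benjamini-Hochberg adjustment). Over the 36 genes with separate high and low levels, 5 pairs of libraries of the same group shared the state in at least 80% of genes (control 2 with 3 and 4 with 5, knockout 1 with 2, 3 with 4 and 5 with 6). Counts were therefore also summed over the 7 resulting sets, and values that differ are given below.

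Mgl2 (ENSMUSG00000040950) lies on chromosome 11 of GRCm38, from 70130329 to 70137550 on the plus strand. Clec10a (ENSMUSG00000000318), which encodes the related lectin CD301a, lies downstream of it on the same strand, from 70156197 to 70170834, with 18646 bases between the genes. Both encode C-type lectins that bind galactose and N-acetylgalactosamine residues on glycans. Their coding sequences in GENCODE M21, 1146 bases for Mgl2 and 927 for Clec10a, aligned over 913 bases with 90.3% identity, and their longest identical run was 183 bases. Of the 50-base words of the Mgl2 transcript, 15.26% also occurred in Clec10a, so some reads could have been assigned to either gene or to none. The stretch in which the coding sequences are most alike, bases 327 to 426 of Mgl2 and 279 to 378 of Clec10a, is shown because a read from it cannot be told apart between the genes:
Mgl2: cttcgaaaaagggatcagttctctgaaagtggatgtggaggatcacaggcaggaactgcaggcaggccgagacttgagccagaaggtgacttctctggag
Clec10a: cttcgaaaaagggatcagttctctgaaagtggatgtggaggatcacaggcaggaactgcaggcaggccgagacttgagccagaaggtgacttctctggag
A later stretch of 100 bases, coding bases 712 to 811 of Mgl2 and 664 to 763 of Clec10a, is shown because it separates them at 8 positions, given in capitals:
Mgl2: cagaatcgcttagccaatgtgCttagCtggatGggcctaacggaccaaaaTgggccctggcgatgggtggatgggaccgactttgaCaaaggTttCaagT
Clec10a: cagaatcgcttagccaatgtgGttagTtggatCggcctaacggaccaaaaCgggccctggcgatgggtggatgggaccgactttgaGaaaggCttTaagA

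Mgl2 was lower in every knockout library than in every control library. Control replicates 1 to 6 stood at 50.9, 60.5, 60.3, 53.1, 61.1 and 41.7 CPM. Knockout replicates 1 to 6 stood at 33.3, 33.3, 29.1, 28.2, 21.7 and 26.9 CPM. The highest knockouts thus lay below control replicate 6, the lowest of its group. Controls averaged 54.6 ± 7.64 CPM and knockouts 28.7 ± 4.37 CPM (SD, n = 6 each), so that the knockouts held 52.7% of the control level. The log2 fold change was -0.92 (SE 0.12, 95% interval -1.17 to -0.67). This interval takes no account of the selection of Mgl2 on these values and is not a test. Over all 16393 genes tested, 1.27% had all knockouts below all controls. Since Mgl2 was chosen for this difference, nothing is read from its place among them. Summed over the sets of libraries, the controls stood at 50.9, 60.4, 57.7 and 42.4 CPM and the knockouts at 33.6, 28.9 and 24.8 CPM.

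**Figure D1:**
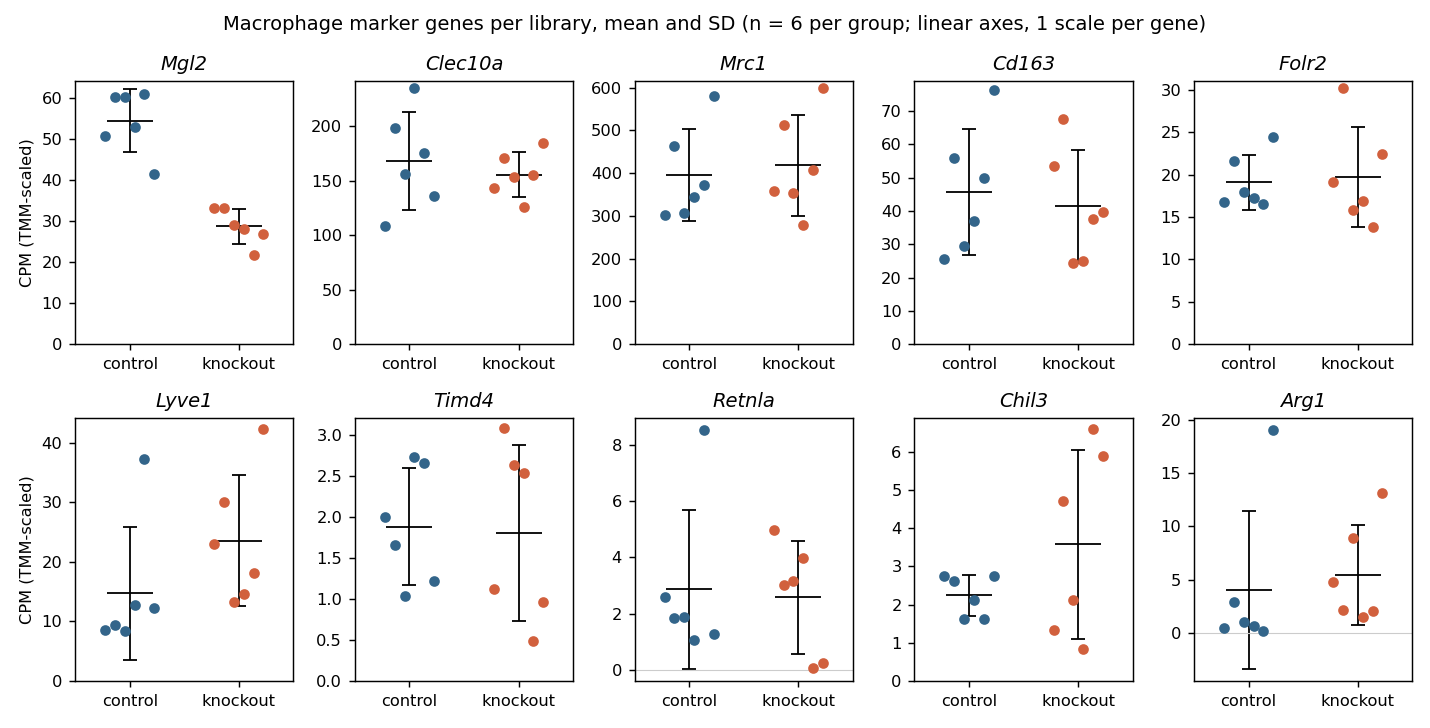
Each panel plots 1 gene, with CPM on a linear axis and 1 point for each of the 6 control (blue) and 6 knockout (orange) libraries; the bars give the mean and SD. The groups are apart for Mgl2, with controls from 41.7 CPM upward and knockouts up to 33.3 CPM, and overlap for the other 9 genes.

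Clec10a, its neighbour and relative, did not pass the test. Control libraries ran from 108 to 235 CPM with a median of 166, and knockout libraries from 126 to 185 CPM with a median of 154. All 6 knockouts lay within the control range. The mean was 168 ± 45.1 CPM over the controls and 155 ± 20.6 CPM over the knockouts (SD, n = 6 each), a log2 fold change of -0.12 (SE 0.16, 95% interval -0.46 to 0.23, adjusted p = 0.929, edgeR). The interval allows a knockout level between 0.727 and 1.17 times that of the controls. Mgl2 stood at 0.340 ± 0.083 of the Clec10a CPM in controls and 0.188 ± 0.039 in knockouts. This ratio overlapped between the groups, because control replicate 4, with the highest Clec10a of all libraries, had a ratio of 0.226 and knockouts reached 0.233. Around Mgl2, 24 of the 37 genes that lie within 250 kb were tested. None of them passed the threshold in edgeR, DESeq2 or limma-voom, beside 131 (0.799%), 399 and 393 of all 16393 genes tested. None had groups that did not overlap, beside 1.43% of all genes. At an unadjusted p under 0.05 there were 0, 0 and 4 of them in the same order, beside 1552, 1704 and 2519 of all genes. Their log2 fold changes ran from -0.45 (Asgr2, the receptor subunit for desialylated glycoproteins in liver) to 0.31 (Rnasek), with a median of -0.02.

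Mgl2 was also set beside the macrophage signal of each library, as a description of the same values for which it was chosen. The summed level of 18 genes that most macrophages express (among them Adgre1, Csf1r, Cd68 and C1qa) was 9032 ± 583 CPM in controls against 8291 ± 1739 CPM in knockouts, with ranges of 8340 to 10054 and 6695 to 11232 CPM that overlap. Lyz2 alone made up 4637 CPM of this sum in controls and 3891 CPM in knockouts, so shares of the sum are largely relative to Lyz2. Mgl2 amounted to between 0.466% and 0.733% of this sum in controls and to between 0.291% and 0.434% in knockouts. Clec10a amounted to 1.86% ± 0.47 of it in controls and 1.91% ± 0.29 in knockouts.

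**Figure D2:**
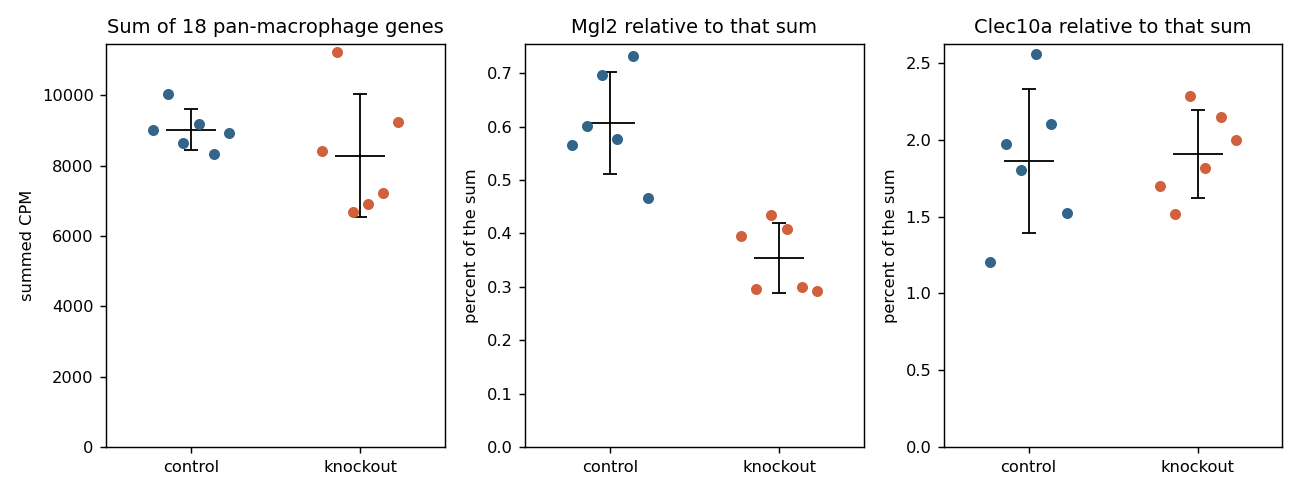
The left panel plots the summed CPM of the 18 pan-macrophage genes, the middle panel Mgl2 and the right panel Clec10a as a percent of that sum, with 1 point per library and the mean and SD (n = 6 per group). The lowest control has Mgl2 at 0.466% of the sum and the highest knockout at 0.434%, while the sum itself and Clec10a overlap.

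The endocytic receptors of resident macrophages overlapped between the groups. Mrc1, the mannose receptor CD206, ran from 303 to 582 CPM in controls (median 359) and from 280 to 600 CPM in knockouts (median 383). Control replicate 6 and knockout replicate 6 were the highest of their groups. The means of 396 ± 108 and 419 ± 118 CPM gave a log2 fold change of 0.08 (SE 0.20, 95% interval -0.35 to 0.51, adjusted p = 0.969, edgeR). Mrc1 overlaps the microRNA gene Mir511 on the same strand. Cd163, the scavenger receptor for haemoglobin bound to haptoglobin, ran from 25.7 to 76.3 CPM in controls and from 24.2 to 67.6 CPM in knockouts, with medians of 43.4 and 38.7. Its log2 fold change was -0.15 (SE 0.31, adjusted p = 0.963), and it became 0.06 without control replicate 6. Folr2, the folate receptor beta, ran from 16.5 to 24.5 CPM in controls and from 13.8 to 30.2 CPM in knockouts, with medians of 17.6 and 18.1. Its log2 fold change was 0.05 (SE 0.17, adjusted p = 0.988). Of its 50-base words, 56.71% also occur in Gm10602, a gene on the opposite strand that overlaps it, and reads were counted with a strand setting not given in the sources used here. Counts of Folr2 may therefore hold or lack reads of that region.

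Lyve1 and Timd4, 2 receptors of long-lived resident macrophages, showed a wider spread. Lyve1, a receptor for hyaluronan, stood between 8.31 and 12.7 CPM in 5 controls and at 37.2 CPM in control replicate 5. Knockouts ran from 13.2 to 42.3 CPM with a median of 20.6, so that every knockout lay above those 5 controls and only knockout replicate 6 lay above control replicate 5. The log2 fold change was 0.67 (SE 0.41, 95% interval -0.21 to 1.56, adjusted p = 0.706, edgeR). Without control replicate 5 it was 1.22, with an adjusted p of 0.109. Of the 7 other genes on the list of lymphatic endothelium, 5 were tested and none was called by edgeR, DESeq2 or limma-voom, with none at an unadjusted p under 0.05 in edgeR. Their summed level ran from 37.0 to 52.5 CPM in controls and from 27.9 to 59.4 CPM in knockouts, and none of the 7 was at 0 in all libraries. Timd4, the phosphatidylserine receptor TIM-4 that takes up apoptotic cells, was low throughout, with 24 to 61 counts in controls and 9 to 80 in knockouts. Controls averaged 1.89 ± 0.72 CPM and knockouts 1.81 ± 1.08 CPM (log2 fold change -0.06, SE 0.40, adjusted p = 0.993).

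The 3 classical genes of alternative activation were all low and varied from library to library. Retnla, the secreted factor RELMα (FIZZ1), ran from 1.06 to 2.59 CPM in 5 controls and reached 8.55 CPM in control replicate 5. In knockout replicates 1 to 4 it stood at 4.99, 3.03, 3.17 and 3.98 CPM, and in knockout replicates 5 and 6 at 0.055 and 0.219 CPM, which are 1 and 5 counts. The first 4 knockouts thus lay above those 5 controls and the other 2 below every control. The log2 fold change over all libraries was -0.16 (SE 0.74, 95% interval -1.77 to 1.44, adjusted p = 0.991, edgeR), and without control replicate 5 it was 0.58.

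Chil3, the chitinase-like protein YM1, lay between 1.61 and 2.74 CPM in controls and between 0.824 and 6.60 CPM in knockouts, with SDs of 0.54 and 2.47 CPM. Knockout replicates 2, 5 and 6 lay above all controls, and replicates 1 and 4 below them. The log2 fold change was 0.68 (SE 0.43, 95% interval -0.25 to 1.60, adjusted p = 0.735, edgeR). Its close relative Chil4, which shares 18.46% of the 50-base words of Chil3, had 1 count over all 12 libraries. Arg1, the arginase that turns arginine into ornithine and urea, stood between 0.175 and 2.90 CPM in 5 controls and at 19.1 CPM in control replicate 6. Knockouts ran from 1.51 to 13.1 CPM, with a median of 3.47 against 0.80 in controls. The log2 fold change was 0.45 (SE 0.95, 95% interval -1.60 to 2.51, adjusted p = 0.963, edgeR). That library decided the value, which was 2.40 without it (adjusted p = 0.212).

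None of the 9 markers other than Mgl2 was called at an adjusted p under 0.05, against 0.799% of all 16393 genes tested (131 genes, of which 123 or 0.75% lower and 8 or 0.0488% higher). None of the 9 had groups that did not overlap, against 1.43% of all genes in either direction. At an unadjusted p under 0.05, edgeR and DESeq2 had none of the 9 and limma-voom 1. Of all 16393 genes, these tools had 1552 (9.47%), 1704 and 2519 in the same order. All 10 genes passed the filter on low counts. Of the 9, 4 had a negative and 5 a positive log2 fold change, with a median of 0.05 beside 0.00 for all genes tested. The 95% intervals include no change for each of the 9, and for Retnla and Arg1 they also include a 2-fold difference in either direction. In counts simulated with the means and sizes of these libraries, 82 of 100 genes changed 2-fold and 52 of 100 changed 1.5-fold were recovered in this comparison (16208 genes). The changed genes were drawn only from those above a minimum mean count, which Timd4 did not reach. Recovery was not computed separately for genes with the spread of Retnla or Arg1. The simulated libraries were drawn independently of each other, without the sets of libraries named above. These shares therefore do not give the chance of a call for each marker in the real libraries.

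**Figure D3:**
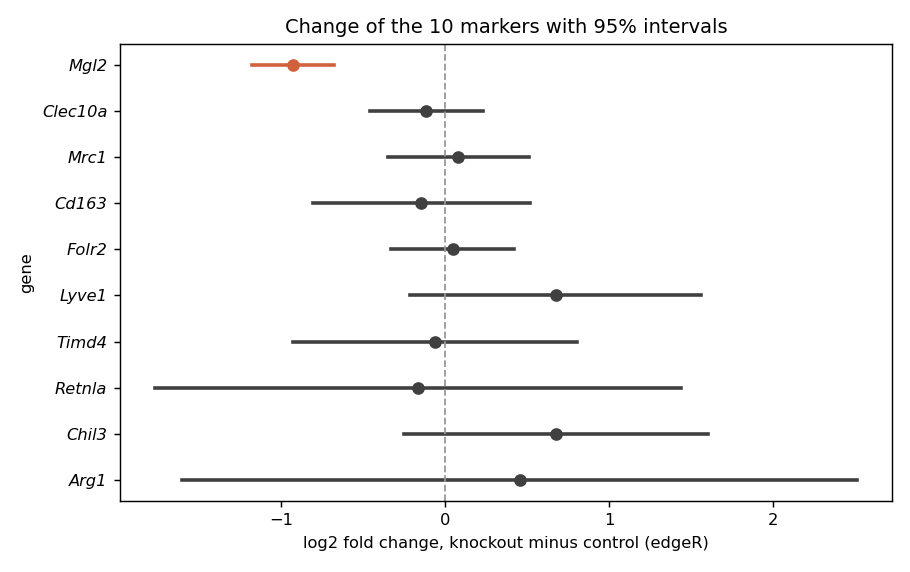
The log2 fold change of each gene, knockout minus control, is plotted as a point with its 95% interval from edgeR. The intervals of the other 9 genes include 0. That of Mgl2 runs from -1.17 to -0.67, takes no account of the choice of this gene for its lower level, and is not a test.

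Per length, the order of the genes was led by the mannose receptor and Clec10a. In the deposited FPKM values, which are scaled to gene length and library size, controls held Mrc1 at 61.4 ± 17.0, Clec10a at 57.3 ± 15.4, Mgl2 at 25.7 ± 3.58, Folr2 at 12.2 ± 2.11 and Cd163 at 8.27 ± 3.46. Lyve1 followed at 4.99 ± 3.78, Retnla at 4.72 ± 4.68, Arg1 at 1.80 ± 3.31, Chil3 at 1.36 ± 0.33 and Timd4 at 0.86 ± 0.32 FPKM. Mgl2 was the only one of them whose range overlapped with neither neighbour in this order in controls. In knockouts it stood at 13.6 ± 2.10 FPKM, where it overlapped with Folr2 at 12.7 ± 3.85 FPKM and exceeded it in 4 of 6 libraries. Clec10a, at 53.2 ± 7.20 FPKM, remained above Mgl2 in 6 of 6 knockouts without overlap. All other neighbours in the order overlapped in both groups.

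Within the groups, the 10 genes did not vary as one. Correlations were taken over the 12 libraries on log2 CPM after removal of each group's mean, and they are descriptions of these libraries, which share depth, RNA quality and the sets named above. Mrc1, Cd163 and Folr2 varied together, with Pearson r of 0.77 (Mrc1 and Cd163), 0.72 (Cd163 and Folr2) and 0.70 (Mrc1 and Folr2). These 3 values ran from 0.61 to 0.87 with single libraries left out. Mrc1 also varied with Chil3 (0.69) and Arg1 (0.65), for which libraries were not left out in turn. Such values were common: of 13369 protein-coding genes, 1052 had a higher r to Mrc1 than Cd163 had, and 1628 than Folr2. For Chil3 and Arg1 these counts were 1740 and 2039. A higher r to Cd163 than that of Folr2 was found for 663 genes. Mgl2 had an r of -0.25 to Mrc1, 0.05 to Cd163, 0.24 to Folr2 and 0.25 to Clec10a. With single libraries left out, the first 3 of these moved most without control replicate 6, to 0.091, 0.48 and 0.63. The r with Folr2 was -0.093 without knockout replicate 5 and -0.014 without knockout replicate 2. With Folr2 the r was -0.55 within the controls and 0.67 within the knockouts. The highest r of Mgl2 among the markers was with Retnla (0.71, and 0.71 by Spearman's rho). This r was 0.49 within the 6 controls and 0.86 within the 6 knockouts. Without knockout replicate 5, which had the lowest level of both genes among the knockouts, it was 0.51. Timd4 had an r of 0.51 to Mgl2 and 0.71 to Retnla, and without that library these were 0.20 and 0.49. Chil3 had negative values, -0.44 to Mgl2 and -0.75 to Retnla, which were -0.21 and -0.65 without it.

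**Figure D4:**
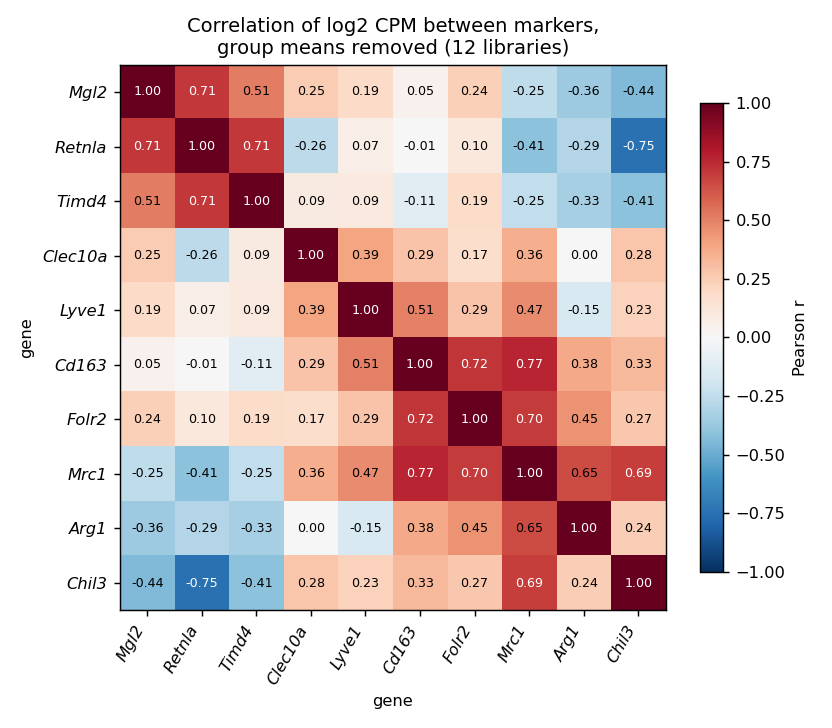
Each cell gives Pearson's r between 2 of the 10 markers over 12 libraries, computed on log2 CPM after removal of the group means (red positive, blue negative). The highest values of Mgl2 are with Retnla (0.71) and Timd4 (0.51), which are 0.51 and 0.20 without knockout replicate 5, while Mrc1, Cd163 and Folr2 lie at 0.70 to 0.77 with each other.

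The correlations of Mgl2 with lists of cell type markers were taken in the same way. Its within-group r was 0.74 with the summed level of 12 adipocyte genes (0.56 within controls, 0.89 within knockouts and 0.57 without knockout replicate 5). With the 18 pan-macrophage genes it was 0.34 (0.007 within controls, 0.49 within knockouts and 0.13 without knockout replicate 2). With 20 other genes of resident macrophages it was 0.05 (-0.26 within controls and 0.28 within knockouts). The latter ran from -0.19 to 0.27 with single libraries left out. For Retnla the r with these sums was 0.76, -0.05 and -0.31 in the same order. Its r with the adipocyte sum was -0.31 within controls and 0.94 within knockouts. Mrc1 had r of -0.35, 0.59 and 0.85 with the same sums, and Folr2 0.29, 0.85 and 0.80. Mgl2 had an r of 0.43 with the sum of 13 dendritic cell genes (-0.31 within controls and 0.72 within knockouts). Its r with the sum of 10 monocyte genes was 0.69 (0.34 within controls and 0.98 within knockouts). Single genes weighed heavily in these sums. Hp, for haptoglobin, made up 556 of the 908 CPM of the monocyte sum in controls and 187 of 482 CPM in knockouts. In controls, Car3, Fabp4 and Lpl made up 2554, 2238 and 1307 of the 7430 CPM of the adipocyte sum. Lyz2 made up 4637 of the 9032 CPM of the pan-macrophage sum in controls, and Sirpa 434 of the 798 CPM of the dendritic cell sum. With Pparg itself the r of Mgl2 was 0.55, made up of -0.21 within controls and 0.88 within knockouts. Differences between these correlations were not tested.

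The adipocyte genes differed between the groups as well. All 12 had a negative log2 fold change, with a median of -1.60, and 2 were called lower in edgeR: Fabp4, the lipid chaperone of fat cells (-1.63, adjusted p = 0.0193), and Lpl, lipoprotein lipase (-1.22, adjusted p = 0.0249). Their summed level ran from 5648 to 9331 CPM in controls and from 1114 to 4806 CPM in knockouts, without overlap, and none of them was at 0. DESeq2 called 9 and limma-voom 11 of the 12. Over the sets of libraries neither Fabp4 nor Lpl was called (adjusted p = 0.269 and 0.293, edgeR). With single libraries left out, Fabp4 kept its call in 9 of 12 fits, losing it without control replicate 4 or knockout replicate 3 or 4, and Lpl in 7, losing it without these 3, control replicate 2 or knockout replicate 6. The part of the adipocyte signal in the lower level of Mgl2 was not tested.

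Among 13368 other protein-coding genes, those most like Mgl2 within the groups were Keap1 (r = 0.94), the sensor that holds the antioxidant factor NRF2 in check, and Retsat (0.91), which saturates retinol. Mad2l1bp (0.88), Nr1h3 (0.86), Commd9 (0.85), Syt3 (0.83), Hcar2 (0.83) and Chmp4b (0.83) followed. Nr1h3 encodes the oxysterol receptor LXRα of macrophages and adipocytes, and Hcar2 the receptor for niacin and beta-hydroxybutyrate. For comparison, 0.217% of these genes had an r of at least 0.8 with Mgl2. The genes named are the highest of 13368 values over 12 libraries. Their r was not tested, and libraries were not left out in turn. Between the groups, Hcar2 fell from 6.50 to 2.22 CPM (log2 fold change -1.55, adjusted p = 0.0393, edgeR). That call was lost over the sets of libraries (adjusted p = 0.329) and held in 4 of 12 fits with a single library left out, those without control replicate 6 or knockout replicate 1, 2 or 5. Retsat (-0.36) and Nr1h3 (-0.46) did not pass the threshold, with adjusted p of 0.431 and 0.322, and the log2 fold changes of the other 5 lay between -0.07 and 0.09.

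The other markers, taken in the same way and with the same limits, had different companions. Mrc1 was most like Adam9, Gpc6 and Dab2 (r from 0.97 to 0.99), and 5.5% of genes had an r of at least 0.8 with it. Cd163 was most like Inpp5f, Adgrl1 and Aldh2 (0.92 to 0.95), Folr2 like Tpd52, Ptpn6 and C1ra (0.94 each), and Lyve1 like Slc35f6, Pi4ka and Tmem104 (0.90 to 0.95). Clec10a was most like Zxdb, Hsd17b4 and Vamp3 (0.86 to 0.89), and 0.0673% of genes reached 0.8 with it. Retnla was most like the keratin gene Krt79 (0.93), Barx2 and Mfsd7a (0.89 each), Timd4 like Tmem14c, Nrn1 and Unc119b (0.90 to 0.92), Chil3 like Chpf2, Fgf7 and Agk (0.88 to 0.92), and Arg1 like P4ha1, Klhl20 and Zfp319 (0.92 to 0.95). None of these 27 genes passed the threshold between the groups in edgeR.

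Because Mgl2 and Retnla varied together, the sequence upstream of both is shown, from the RefSeq table of promoters on GRCm38.p6, which held 7 of the 10 genes. Each run ends at the base before the start of the gene in GENCODE M21. In Mgl2 (chr11:70130107-70130328, plus strand) the capitals mark GAGGAA, the core bound by PU.1, a factor of all macrophages. In Retnla (chr16:48842359-48842550, plus strand) they mark the same core on the opposite strand and a match to the STAT6 motif, which is TTC and GAA with any 4 bases between them:
Mgl2: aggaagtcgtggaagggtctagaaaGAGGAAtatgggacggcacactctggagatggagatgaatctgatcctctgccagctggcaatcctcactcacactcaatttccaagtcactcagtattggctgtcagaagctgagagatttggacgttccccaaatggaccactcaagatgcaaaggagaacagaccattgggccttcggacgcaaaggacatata
Retnla: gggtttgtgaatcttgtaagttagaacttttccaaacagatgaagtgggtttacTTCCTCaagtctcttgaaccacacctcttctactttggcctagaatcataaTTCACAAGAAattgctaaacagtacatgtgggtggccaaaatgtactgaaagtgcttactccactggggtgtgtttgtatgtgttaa
Searched on both strands over the full RefSeq windows, GAGGAA occurred in the promoters of Mrc1, Mgl2 and Retnla and in 28.3% of all 32851 promoters. The STAT6 motif occurred in Retnla and in 6.95% of promoters. AGGTCA, the nuclear receptor half-site, occurred in Timd4 and Retnla and in 16.3%, and the direct repeat DR1, 2 such half-sites with 1 base between them, to which PPARγ binds with RXR, occurred in none of the markers and in 0.0396%. These are matches of letters in short windows and say nothing of binding.

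The genes of the pathway around these markers were followed in lists that name its ligands, receptors and targets. Of 248 such genes and markers of other cell types, 206 were tested and 2 were called in edgeR, both of them the adipocyte genes above, beside 0.799% of all genes tested. At an unadjusted p under 0.05 there were 38, beside 9.47% of all genes. The list of IL-4 and IL-13 signalling had 17 of 20 genes tested, none called and 4 at an unadjusted p under 0.05, with a median log2 fold change of -0.10. The ligand genes Il13 and Il25 were too low to test, with 27 and 10 counts over all libraries. Irf4, a transcription factor that acts downstream of the IL-4 receptor, stood at 6.28 ± 1.12 CPM in controls against 3.74 ± 1.38 CPM in knockouts (log2 fold change -0.75, SE 0.23, adjusted p = 0.186, edgeR). It was called by limma-voom (adjusted p = 0.0375) and not by DESeq2. Il33, the alarmin upstream of the pathway, stood at 32.4 ± 10.8 and 23.2 ± 1.73 CPM (-0.48, adjusted p = 0.311).

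Among the other genes that IL-4 induces in macrophages, Ccl24 had the smallest p. This eosinophil chemokine stood at 4.97 ± 1.19 CPM in controls against 2.65 ± 0.63 CPM in knockouts (SD, n = 6 each), with groups that overlap. Its log2 fold change was -0.91 (SE 0.20), close to that of Mgl2. The adjusted p was 0.0550 in edgeR, 0.00186 in DESeq2 and 0.0400 in limma-voom, so the call depends on the tool. Of the 17 listed genes 11 were tested, none was called in edgeR and Ccl24 alone had an unadjusted p under 0.05, with a median log2 fold change of -0.08.

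Markers of macrophages in general were near the median of all genes. The 18 pan-macrophage genes had a median log2 fold change of -0.03, with none called and none at an unadjusted p under 0.05 in edgeR. DESeq2 and limma-voom called none of them either. Of the 20 other genes of resident macrophages none was called by the 3 tools and 3 had an unadjusted p under 0.05, with a median of 0.08. Those with the smallest p were Ltc4s, leukotriene C4 synthase (4.77 ± 0.60 against 3.43 ± 0.91 CPM, log2 fold change -0.47, adjusted p = 0.378), and Cd209d, a C-type lectin of the DC-SIGN family (-0.71, adjusted p = 0.415). The 13 tested genes of lipid-associated macrophages had a median of -0.11, with none called and 1 at an unadjusted p under 0.05 in edgeR. Fabp5, a fatty acid binding protein, stood at 422 ± 45.4 CPM in controls against 280 ± 84.0 CPM in knockouts (-0.60, adjusted p = 0.126), and DESeq2 and limma-voom called it lower. The 13 inflammatory genes had a median of 0.10, with none called and 2 at an unadjusted p under 0.05 in edgeR. Il1b, for interleukin-1 beta, stood at 5.15 ± 1.78 and 12.03 ± 5.85 CPM (1.22, adjusted p = 0.152), and DESeq2 called it higher.

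Markers of other cells that can be present in injured muscle were set beside Mgl2. Of the 13 dendritic cell genes tested, 12 had a negative log2 fold change with a median of -0.04, and none was called by any of the 3 tools, with none at an unadjusted p under 0.05 in edgeR. Their summed level overlapped, from 753 to 850 CPM in controls and from 657 to 943 CPM in knockouts. Sirpa alone held on average 434 CPM of this sum in controls and 424 CPM in knockouts. The smallest p in this list belonged to Cd209a, a DC-SIGN relative of monocyte-derived dendritic cells, at 8.79 ± 2.37 CPM in controls against 5.08 ± 2.71 CPM in knockouts (log2 fold change -0.80, SE 0.37, adjusted p = 0.526, edgeR). The 7 genes of MHC class II presentation had a median of -0.09, also with none called by the 3 tools and none at an unadjusted p under 0.05 in edgeR. The 10 monocyte genes had a median of -0.27 (8 below 0 and 2 above), with none called and 3 of them at an unadjusted p under 0.05 in edgeR. Hp was below all controls in every knockout (556 ± 213 against 187 ± 96.2 CPM, log2 fold change -1.57, adjusted p = 0.115) and was called lower by DESeq2 and limma-voom, and Ccr2, the chemokine receptor of inflammatory monocytes, had a log2 fold change of -0.41 (adjusted p = 0.391). Hp stood apart from its list, as the log2 fold changes of the other monocyte genes ran from -0.54 (Ifitm6) to 0.40 (Ly6c2). The 10 lymphoid genes tested all had log2 fold changes above 0 (median 0.68), and none was called in edgeR. Of these 10, 5 had an unadjusted p under 0.05, against 9.47% of all genes tested. Gzma, a granzyme of killer cells, stood at 3.13 ± 1.88 and 7.47 ± 2.09 CPM (1.26, adjusted p = 0.132, edgeR) and was called higher by DESeq2. Genes of eosinophils, basophils and mast cells were scarce, with 7 of 16 tested, none called by the 3 tools, none at an unadjusted p under 0.05 in edgeR, Ear6 at 0 counts in all 12 libraries, and Epx and Ear1 at 2 and 1 counts in all. The part of these cells in the lower level of Mgl2 was not tested.

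**Figure D5:**
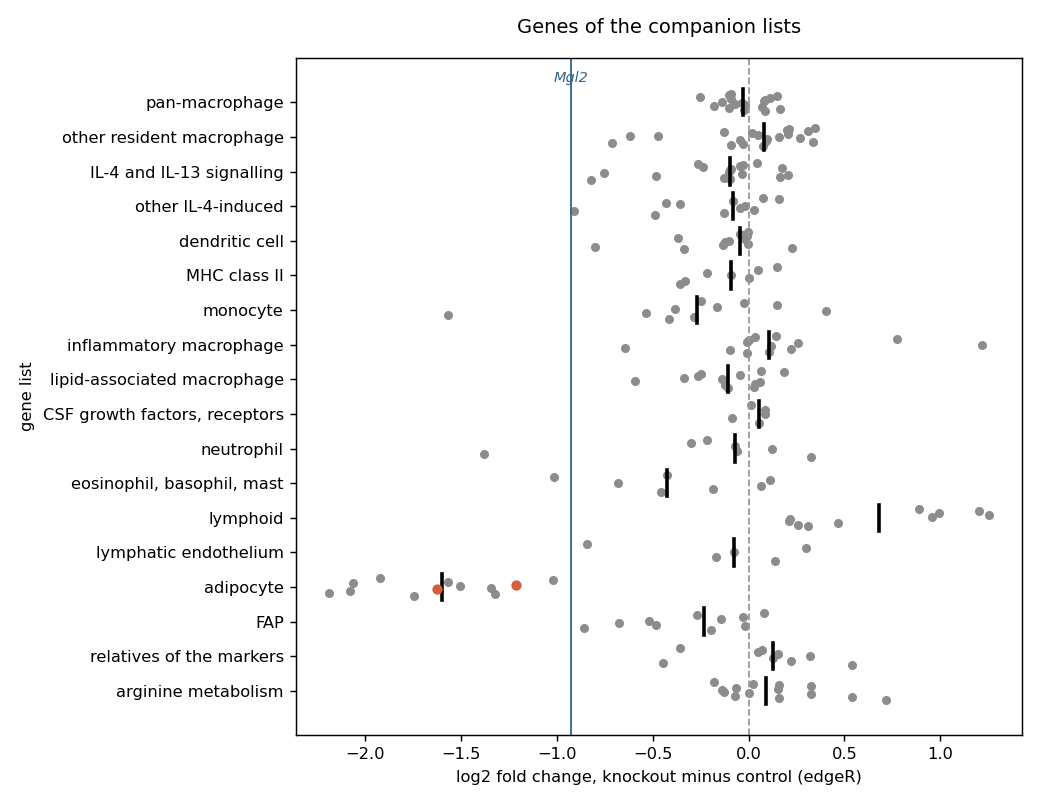
Each point is a tested gene of a list, placed by its log2 fold change (knockout minus control, edgeR); black bars are list medians, orange points the 2 genes called, and the blue line the value of Mgl2 (-0.92). Only the adipocyte list, with a median of -1.60, lies to the left of the Mgl2 line as a whole, and the medians of the macrophage lists lie between -0.11 and 0.10.

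Relatives of the markers and the metabolism of arginine gave no call in edgeR. Of 18 relatives 9 were tested, with a median log2 fold change of 0.13 and 1 at an unadjusted p under 0.05, Arg2, the mitochondrial arginase (2.01 ± 0.55 against 2.93 ± 0.94 CPM, 0.54, adjusted p = 0.481). Retnlb and Chia1, relatives of Retnla and Chil3, had no count in any library. The 14 genes of arginine, ornithine and polyamine metabolism had a median of 0.09 and 2 at an unadjusted p under 0.05, Slc7a1, the arginine transporter (0.33, adjusted p = 0.319), and Arg2. DESeq2 and limma-voom called none of the genes on either list.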

How the data were processed

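RNA sequencing of 12 whole-muscle samples (6 control, 6 knockout) was analysed from the deposited tables. The authors deposited whole-number read counts per gene without normalization, and FPKM values per gene. The submitters' processing notes name fastp, HISAT2 2.0.5, featureCounts and the build GRCm38 (mm10), with a strand setting not given in the sources used here.

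Counts were tested with edgeR 4.0.16 in R 4.3.3 (TMM scaling, filterByExpr at its defaults of 10 counts and 15 in total, robust quasi-likelihood F test, Benjamini-Hochberg adjustment over 16393 genes, threshold 0.05). Log2 CPM used a prior of 2 counts. On simulated data with libraries drawn independently, 6 of 140 calls of this fit were false. Alternatives used DESeq2 1.42.0, limma 3.58.1 (voom, and log2 of the deposited FPKM values with a pseudocount of 1), other scalings and filters, covariates, the replicate number and left-out libraries. The members and lists were chosen with earlier results of these data known. Named genes are the 10 markers, Pparg, up to 2 genes per list with the smallest p, all called list genes, and the 8 (Mgl2) or 3 (others) protein-coding genes with the highest within-group correlation and a mean log2 CPM of at least 0. Asgr2, Rnasek and genes with few or no counts were named after their values were seen. Coding sequences were aligned with Biopython 1.88. Lists of muscle fibres, FAPs, neutrophils and macrophage growth factors (8, 10, 7 and 5 genes tested) had no gene called in edgeR, with medians of 0.17, -0.23, -0.07 and 0.05 and with 0, 4, 1 and 0 genes at an unadjusted p under 0.05; DESeq2 called 2 FAP genes and 1 neutrophil gene, and limma-voom 1 FAP gene.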

Additional observations from a re-analysis of the deposited data

Results flagged for a closer look

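Of the 20 groups formed by the 10 markers in controls and in knockouts, 3 held a library far from the others of its group by Dixon's criterion, which chance meets in about 1 of 20 groups. All were control libraries with the highest level. Lyve1 stood at 37.2 CPM in control replicate 5 and at 12.7 CPM in the next control. Retnla stood at 8.55 CPM in the same library and at 2.59 CPM in the next. Arg1 stood at 19.1 CPM in control replicate 6 and at 2.90 CPM in the next. Mgl2, at 61.1 CPM in control replicate 5 and 41.7 CPM in control replicate 6, was the highest and the lowest of the controls in these libraries without being far from the rest.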

How the results depend on the processing

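Mgl2 had a log2 fold change between -1.04 and -0.84 in all 24 alternatives, and none of the other 9 markers was called in any. The 131 genes called by edgeR became 399 with DESeq2, 393 with limma-voom, 236 with the replicate block, 406 without knockout replicates 1 and 2, 72 without control replicates 5 and 6, and 0 with counts summed over sets of libraries (1127 at an unadjusted p under 0.05); with single libraries left out they ran from 6 (without knockout replicate 3) to 214 (without knockout replicate 2). The 2 genes called on the companion lists became 17, 16, 9, 16, 1 and 0 in the same order, 6 on FPKM values, and 0 to 6 with single libraries left out. The cause was not tested. Same-numbered libraries correlated from -0.13 to 0.46, so the numbers were not taken as pairs. The replicate block changed the call of none of the 9 markers. The sums over sets and both pairs of left-out libraries were chosen after seeing the data. Pparg lost its call in 11 of 24 alternatives, with an adjusted p of up to 0.274.

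Several differences near 0 changed sign: Clec10a over sets of libraries (0.0144), Mrc1, Folr2, Timd4 and Retnla with the mitochondrial share as covariate (-0.0297, -0.0107, 0.0353 and 0.14), Folr2 with limma-voom (-0.0606) and without knockout replicates 1 and 2 (-0.15), and Cd163 and Retnla without control replicates 5 and 6 (0.16 and 0.48). With single libraries left out, log2 fold changes ran from -0.21 to 0.0145 for Clec10a, -0.0498 to 0.22 for Mrc1, -0.34 to 0.0621 for Cd163, -0.11 to 0.14 for Folr2, -0.28 to 0.14 for Timd4, 0.42 to 1.22 for Lyve1, 0.43 to 0.89 for Chil3, -0.47 to 0.58 for Retnla and -0.0140 to 2.40 for Arg1. Larger moves without a change of sign included Cd163 without knockout replicates 1 and 2 (-0.53), Lyve1 without control replicates 5 and 6 (1.28), Timd4 and Retnla with limma-voom (-0.40 and -1.003), Retnla without knockout replicates 1 and 2 (-0.65), Chil3 with limma-voom, FPKM values, the mitochondrial covariate or the replicate block (0.34, 0.29, 0.30 and 0.43), and Arg1 with limma-voom, the replicate block and without control replicates 5 and 6 (2.30, 1.44 and 2.12). All libraries had Xist (481 to 783 CPM) and no count of Y-linked genes, the pattern of females, so sex as a covariate was not run. At the depth of these libraries, Timd4, Retnla, Chil3 and Arg1 rest on few counts.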
